A study of Mus musculus with 6 samples.

Results

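The collagen and laminin chains are the genes whose array name has the form of a collagen alpha chain (Col, a type number, a, a chain number) or of a laminin alpha, beta or gamma chain (Lama, Lamb or Lamc with a number). They number 51 of the 27962 gene names on the array, 40 collagen chains and 11 laminin chains, and 99 of its 41174 probes. Each gene was represented by its brightest probe, taken as the highest mean over the 6 arrays. Total RNA of J1, an embryonic stem cell line of the mouse, was hybridised to single-colour (Cy3) Agilent expression arrays. The 6 arrays fall into 3 groups of 2: cells given siRNA against Thoc2, cells given siRNA against Thoc5, and cells given a non-targeting siRNA (NT). Cells of every group had been kept in ESGRO medium, were switched to M10 medium for the transfection, and were harvested 96 hours after it. Both targets encode parts of the THO complex, which binds mRNA as it is made and readies it to leave the nucleus. The labels give neither the siRNA sequences nor whether replicates were separate cultures, and each array averages a whole transfected population.

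Collagens are triple helices of 3 alpha chains, and laminins are crosses of 1 alpha, 1 beta and 1 gamma chain that assemble before secretion. Laminin and collagen IV polymerise into the 2 networks of a basement membrane, the sheet on which epithelia sit. In the early mouse embryo the first basement membrane forms between the epiblast and the primitive endoderm, and primitive and parietal endoderm are known as strong producers of Lama1, Lamb1, Lamc1, Col4a1 and Col4a2. Fibrillar collagens such as types I and III are the products of fibroblasts, and fibril-associated, transmembrane and short-chain collagens have narrower tissues.

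Col4a1 and Col4a2 encode the 2 chains of the commonest collagen IV trimer and lie head to head on chromosome 8. They are shown because both had the same highest and lowest arrays, as given below. The RefSeq starts of the 2 genes (assembly GRCm38.p6) are 21 bases apart, so that the windows of 250 bases before and 50 bases from each start share 78 bases, which are in capitals and read on opposite strands in the 2 lines. The Col4a1 window is chr8:11312777-11313076 on the minus strand, and the Col4a2 window is chr8:11312555-11312854 on the plus strand.
Col4a1: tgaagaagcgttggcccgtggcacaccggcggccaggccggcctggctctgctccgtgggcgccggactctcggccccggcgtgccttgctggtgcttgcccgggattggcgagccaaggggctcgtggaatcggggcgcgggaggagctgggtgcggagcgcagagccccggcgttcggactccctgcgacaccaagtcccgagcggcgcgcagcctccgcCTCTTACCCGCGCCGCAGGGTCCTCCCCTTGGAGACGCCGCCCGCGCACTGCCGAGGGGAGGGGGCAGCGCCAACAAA
Col4a2: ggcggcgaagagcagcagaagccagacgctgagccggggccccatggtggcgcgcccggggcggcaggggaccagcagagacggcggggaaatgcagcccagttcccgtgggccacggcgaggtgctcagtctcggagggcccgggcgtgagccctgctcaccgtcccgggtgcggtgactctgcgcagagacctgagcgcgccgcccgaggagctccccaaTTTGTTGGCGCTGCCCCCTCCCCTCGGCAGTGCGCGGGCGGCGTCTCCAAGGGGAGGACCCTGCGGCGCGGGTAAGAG
The windows are 74.0% (Col4a1) and 73.7% (Col4a2) G and C. The letters GGGCGG or, on the other strand, CCGCCC occur 1 time in the Col4a1 window and 3 times in the Col4a2 window, 1 of them in the shared bases. They occur in 35.7% of the 32851 RefSeq windows of this length and in 22 of the 37 windows found for the collagen and laminin chains. CCAAT or ATTGG occurs 1 time in each of the 2 windows, in the Col4a2 window with only its last letter in the shared bases, and in 37.4% of all windows and in 12 of the 37. GATAA or TTATC occurs in neither window, in 25.4% of all windows and in 6 of the 37. These matches are a description of the letters only.

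For 4 chains on which the comparisons below turn, the 60-base array probe is printed because its signal is the measurement; each reads through without a stop codon in at least 1 frame. The Lama4 probe lies at chr10:38885787-38885846 on the plus strand. The Lama2 probe lies at chr10:26736609-26736668, the Col2a1 probe at chr15:97979257-97979316 and the Col4a6 probe at chrX:135831206-135831265, all on the minus strand. These positions are in build mm7, which the file headers name, and the files do not say which exon a probe matches. No letters are in capitals.
Lama4: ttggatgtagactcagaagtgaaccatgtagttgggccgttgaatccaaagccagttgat
Lama2: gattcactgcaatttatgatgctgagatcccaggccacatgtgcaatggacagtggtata
Col2a1: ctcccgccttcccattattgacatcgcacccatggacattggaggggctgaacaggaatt
Col4a6: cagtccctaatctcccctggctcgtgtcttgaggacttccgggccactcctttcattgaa

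A level is the log2 processed signal of a probe minus the 75th percentile of its array, so that a probe at that percentile has a level of 0 and a dimmer one a negative level. Levels of different probes are not comparable, and each gene is compared only with itself. The 75th percentile signal was 306 on replicate 1 of Thoc5 siRNA and 716 to 905 on the other arrays. Of all spots, 56.7% were well above background on that array and 68.3% to 79.7% on the others. Replicate 1 of Thoc2 siRNA, with 79.7%, had a lower quartile signal of 17.6, against 2.63 to 10.6 on the other arrays. It had 880 outlier spots, against 63 to 155 on the others. For Lama4, Lama2, Col15a1 and Col20a1, dim chains that were higher with Thoc2 siRNA, values under quantile normalization are therefore also given below. In cells given its own siRNA, Thoc2 was at 55.0% and Thoc5 at 41.4% of the NT level, with adjusted p-values from limma of 0.304 (Thoc2) and 0.130 (Thoc5). All 9 embryonic stem markers on the array (Pou5f1, Nanog and Sox2 among them) were well above background on every array. None of the 9 was higher at an unadjusted p under 0.05, while 0 were lower with Thoc2 siRNA and 3 with Thoc5 siRNA. The mean of each was below NT with both. Of all genes 8.03% were higher and 6.5% lower at that p with Thoc2 siRNA, and 7.38% higher and 12% lower with Thoc5 siRNA. Of the fibroblast markers, Fap stayed in the background on all 6 arrays, and 7 of 12 were well above it on all of them.

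The J1 cells gave signal for every laminin chain and for most collagen chains. All 11 laminin genes passed the filter for testing, which asks that a gene's brightest probe be well above background on both arrays of at least 1 group, and 9 of them were above it on all 6 arrays. Of the 40 collagen genes 27 passed and 21 were above background on all arrays. The 13 collagen genes that did not pass are Col3a1, Col4a3, Col4a5, Col5a2, Col6a1, Col6a3, Col9a1, Col10a1, Col12a1, Col14a1, Col19a1, Col24a1 and Col28a1. Among these 13, Col4a3, Col6a1, Col12a1 and Col28a1 were above background on none of the 6 arrays by their brightest probe, and the levels of all 13 ran from -8.39 to -3.45. A dimmer Col4a3 probe, A_52_P33176, was above background on 1 array. By their brightest probes, Col4a5, Col6a3, Col10a1 and Col24a1 were above background on replicate 1 of Thoc2 siRNA only. Another 8 genes were tested but were not above background on at least 1 array: Col6a2, Col8a1, Col11a2, Col15a1, Col23a1, Col25a1, Lama2 and Lamb3. Replicate 1 of Thoc5 siRNA, the dimmest array, lacked 7 of those 8.

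**Figure D1:**
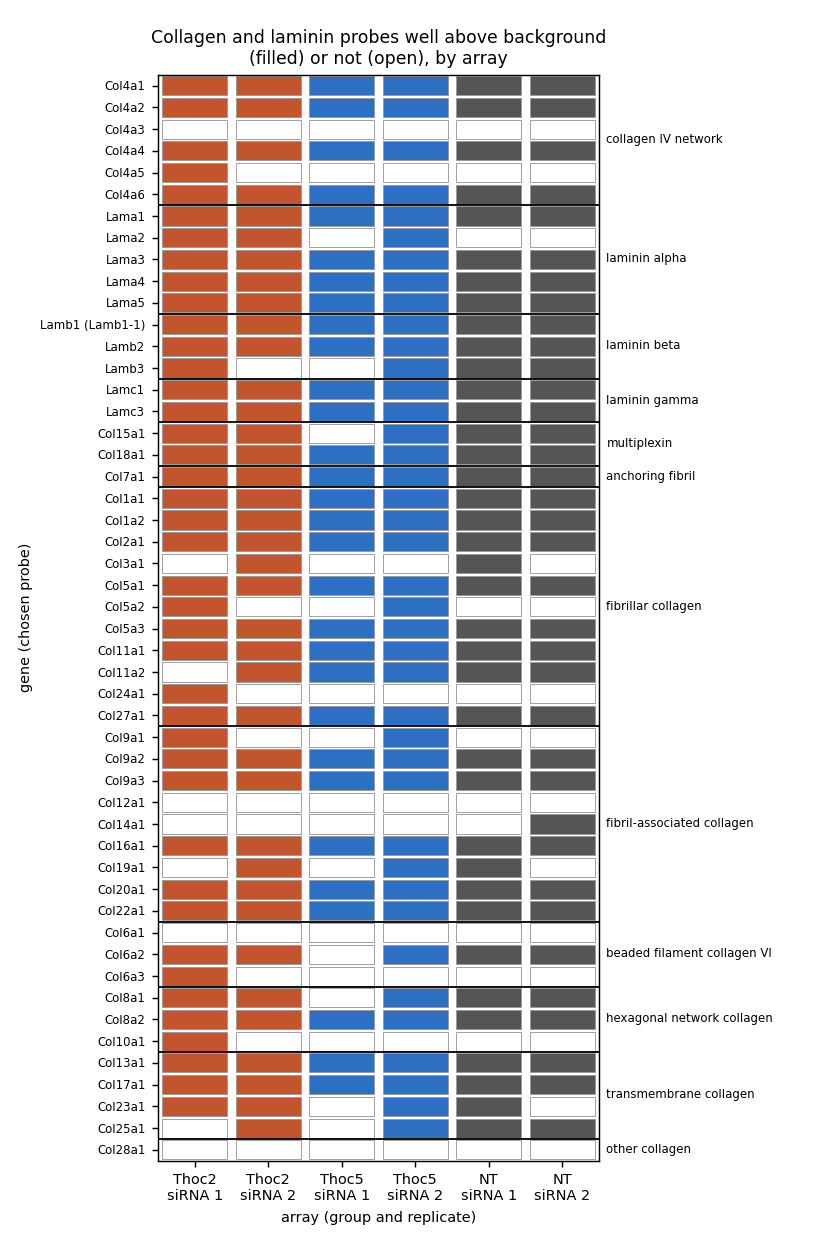
Detection of 50 of the 51 collagen and laminin chains on the 6 arrays, grouped by role. Rows are genes (1 probe each) and columns are arrays; a filled square is a probe well above background, with colour by group, and an open one is not. The laminin rows are filled on nearly all arrays, and 4 collagen rows are open on all 6.

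No chain passed limma's adjusted p of 0.05 in any comparison (0 of 38 tested chains and 0% of the 19480 genes tested, in each of the 3), so the differences below are sizes with an unadjusted p unless stated. With Thoc2 siRNA against NT, 10 of the 38 tested chains had an unadjusted p under 0.05, against 14.5% of all genes: 7 were higher (8.03% of all genes were) and 3 lower (6.5%). With Thoc5 siRNA against NT, 12 had, against 19.4% of all genes: 3 were higher (7.38%) and 9 lower (12%). With Thoc5 against Thoc2 siRNA, 11 had, against 9.15% of all genes: 2 were higher (2.19%) and 9 lower (6.96%). Lama2, among the 7 higher with Thoc2 siRNA and the last 9, passed the filter only through the Thoc2 siRNA arrays, where it was highest. The smallest adjusted p of a chain was 0.219 with Thoc2 siRNA, 0.101 with Thoc5 siRNA and 0.414 between them, and that of any gene was 0.211, 0.101 and 0.405 in the same comparisons.

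The median log2 difference of the 38 tested chains was 0.08 with Thoc2 siRNA, where that of all genes was 0.06, and -0.01 with Thoc5 siRNA, where that of all genes was -0.08. Under quantile normalization the first turned to -0.27, with all genes at -0.01, and the second to 0.04. Of the 38 chains 20 lay above 0 with Thoc2 siRNA, and 19 with Thoc5 siRNA. In Thoc5 against Thoc2 siRNA 14 lay above 0 and 24 below, with a median of -0.20 beside -0.13 for all genes, which turned to 0.08 under quantile normalization with all genes at -0.015. The 27 tested collagens had a median of 0.11 with Thoc2 siRNA, -0.17 with Thoc5 siRNA and -0.40 in Thoc5 against Thoc2 siRNA. The 11 laminins had medians of 0.05, 0.14 and 0.03. Since both siRNA groups are set against the same 2 NT arrays, differences that they share are not independent of each other.

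**Figure D2:**
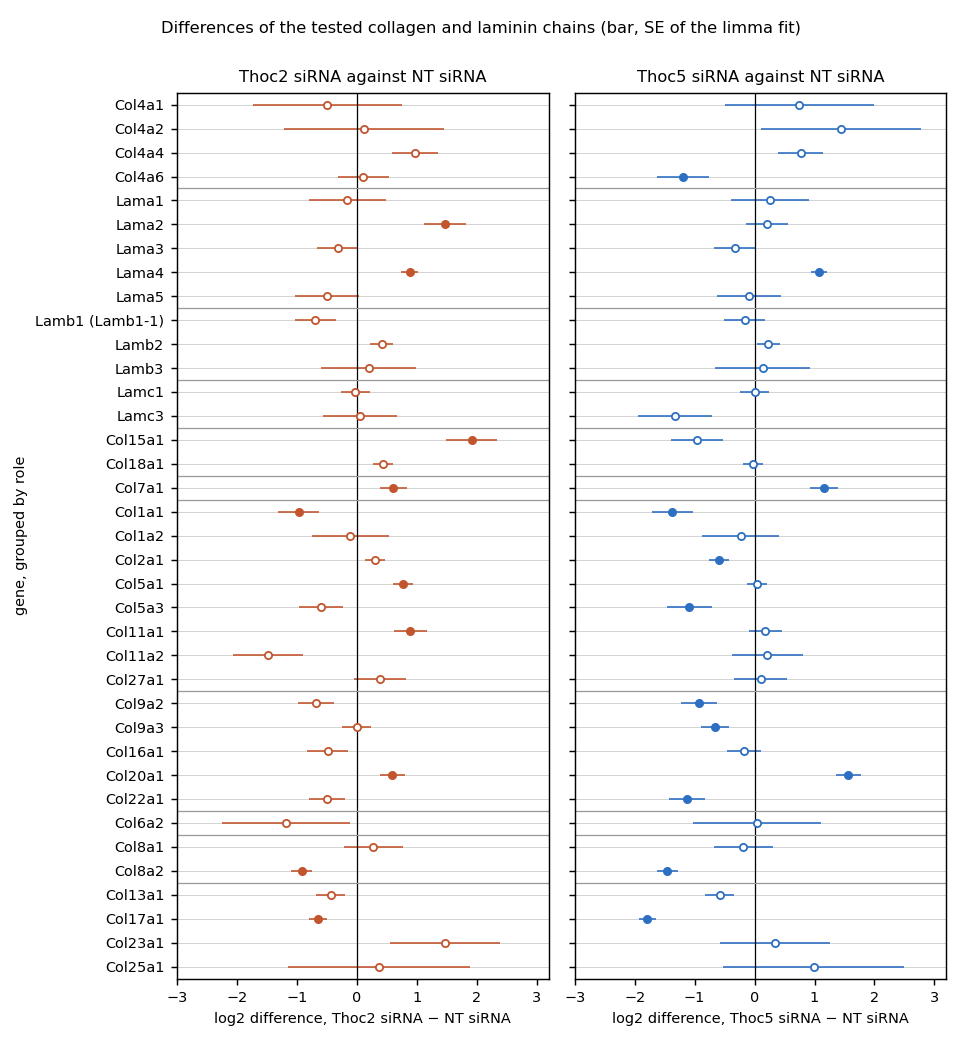
Log2 differences from NT siRNA of 37 of the 38 tested chains, with Thoc2 siRNA in the left panel and Thoc5 siRNA in the right. Genes run down the page by role, points are differences, bars are the SE of the limma fit, and filled points have an unadjusted p under 0.05. Filled points lie on both sides of 0 in each panel, and the bars of Col4a1 and Col4a2 are among the widest.

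The chains of laminin-111 and laminin-511, the laminins of early embryonic basement membranes, gave no unadjusted p under 0.05 in any comparison. Lamc1, the gamma chain that both share, was at 4.98 and 5.28 with Thoc2 siRNA, 5.37 and 4.95 with Thoc5 siRNA, and 4.997 and 5.32 with NT siRNA. The groups overlapped almost fully, and its log2 difference from NT was -0.03 ± 0.24 with Thoc2 siRNA and 0.01 ± 0.24 with Thoc5 siRNA (SE of the limma fit, as for every ± below). Lama5, the alpha chain of laminin-511, was at 2.19 and 3.68 with Thoc2 siRNA, 3.21 and 3.47 with Thoc5 siRNA, and 3.23 and 3.63 with NT siRNA. The single low value was replicate 1 of Thoc2 siRNA, and the differences from NT were -0.50 ± 0.54 with Thoc2 siRNA and -0.09 ± 0.54 with Thoc5 siRNA. Lamb1, which the array names Lamb1-1, was at 1.33 and 1.10 with Thoc2 siRNA, 2.15 and 1.33 with Thoc5 siRNA, and 2.11 and 1.70 with NT siRNA. Both Thoc2 siRNA arrays lay below both NT arrays, by -0.69 ± 0.34 (limma, unadjusted p = 0.104), and the Thoc5 siRNA arrays overlapped them.

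Lama1, Col4a1 and Col4a2 differed more between the 2 NT replicates, and between the 2 Thoc5 siRNA replicates, than between group means, while their Thoc2 siRNA replicates lay within 0.21 of each other. Lama1, the alpha chain of laminin-111, was at 0.84 and 0.63 with Thoc2 siRNA, 1.76 and 0.54 with Thoc5 siRNA, and 1.61 and 0.18 with NT siRNA. Col4a1 was at -1.40 and -1.19 with Thoc2 siRNA, 0.82 and -0.94 with Thoc5 siRNA, and 0.82 and -2.44 with NT siRNA. Col4a2, its partner in the trimer, was at -1.31 and -1.45 with Thoc2 siRNA, 0.87 and -0.99 with Thoc5 siRNA, and 0.26 and -3.26 with NT siRNA. In all 3 genes replicate 1 of Thoc5 siRNA and replicate 1 of NT siRNA were the highest arrays and replicate 2 of NT siRNA was the lowest, so the NT group spans the others. The gap between the 2 NT arrays was 3.51 for Col4a2 and 3.26 for Col4a1, the widest of the 30 chains above background on all arrays, and 1.42 for Lama1. No other of the 30 chains was higher on replicate 1 of NT siRNA by more than 1.

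The differences of these genes from NT depended on which array was left out. Col4a1 was at 0.74 ± 1.25 with Thoc5 siRNA, and from -0.89 to 2.38 when any 1 array was left out. Without replicate 2 of NT siRNA it was at -0.89, and without replicate 1 of Thoc5 siRNA at -0.14. Col4a2 was at 1.44 ± 1.33 with Thoc5 siRNA, and at -0.32 without replicate 2 of NT siRNA. With Thoc2 siRNA, Col4a1 was at -0.49 ± 1.25 and Col4a2 at 0.12 ± 1.33, and leaving out 1 array moved these from -2.12 to 1.14 and from -1.63 to 1.88. Lama1 was at -0.16 ± 0.64 with Thoc2 siRNA and 0.26 ± 0.64 with Thoc5 siRNA. No direction can be given for the 3 genes.

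A second probe had the same highest and lowest arrays for both collagens and not for Lama1. The second Col4a1 probe, A_52_P518827, was at -1.16 and -1.14 with Thoc2 siRNA, 0.41 and -1.33 with Thoc5 siRNA, and -0.30 and -3.37 with NT siRNA. The second Col4a2 probe, A_52_P496142, was highest on replicate 1 of Thoc5 siRNA, at -0.36, and lowest on replicate 2 of NT siRNA, at -4.21. The second Lama1 probe, A_52_P561046, was dim and stayed between -3.48 and -2.97 on the 6 arrays.

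Some markers of primitive endoderm, Gata6, Sox17 and Sox7 among them, moved with collagen IV across the arrays. Gata6, a transcription factor of that lineage, was at -0.04 and -0.34 with Thoc2 siRNA, 1.55 and -0.31 with Thoc5 siRNA, and 0.78 and -2.35 with NT siRNA. Sox17, another, was at -1.30 and -1.61 with Thoc2 siRNA, 0.54 and -1.31 with Thoc5 siRNA, and -0.18 and -3.78 with NT siRNA. Sox7 was at -2.25 and -1.77 with Thoc2 siRNA, -0.71 and -2.34 with Thoc5 siRNA, and -0.65 and -3.37 with NT siRNA. In these 3 genes the 2 highest arrays and the lowest array were those of Col4a1 and Col4a2. Gata4 was at -4.47 and -3.10 with Thoc2 siRNA, -4.13 and -4.71 with Thoc5 siRNA, and -3.20 and -5.48 with NT siRNA. It shared the low replicate 2 of NT siRNA but was highest on replicate 2 of Thoc2 siRNA. Hnf4a, another listed marker, was at -5.43 and -2.54 with Thoc2 siRNA, -4.87 and -6.06 with Thoc5 siRNA, and -2.82 and -3.68 with NT siRNA. It did not share the order of collagen IV, and was not well above background on replicate 1 of Thoc5 siRNA.

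Of the 12 markers on the primitive and parietal endoderm list, 8 were above background on all arrays. With either siRNA 1 of the 10 tested markers, Thbd, was higher than NT at an unadjusted p under 0.05 and 0 were lower. Of all genes 8.03% were higher and 6.5% lower with Thoc2 siRNA, and 7.38% higher and 12% lower with Thoc5 siRNA. Thbd was well above background on both Thoc2 siRNA arrays, on replicate 2 of Thoc5 siRNA and on no NT array. It therefore passed the filter only through the Thoc2 siRNA group, and its NT values lie in the background. All 8 markers above background on every array were higher on replicate 1 than on replicate 2 of NT siRNA by more than 1 on the log2 scale, and 7 of the 8 were so in the Thoc5 siRNA pair. The summed linear level of the list, in units of each array's 75th percentile signal, was 3.52 and 4.54 with Thoc2 siRNA, 15.1 and 4.01 with Thoc5 siRNA, and 13.97 and 1.60 with NT siRNA. Ttr, a marker of visceral endoderm, did not exceed the background cutoff on any of the 6 arrays. The part of such cells in the collagen IV and Lama1 levels was not tested. In bulk RNA a smaller number of cells of a type and less of the RNA in each cell cannot be told apart.

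**Figure D3:**
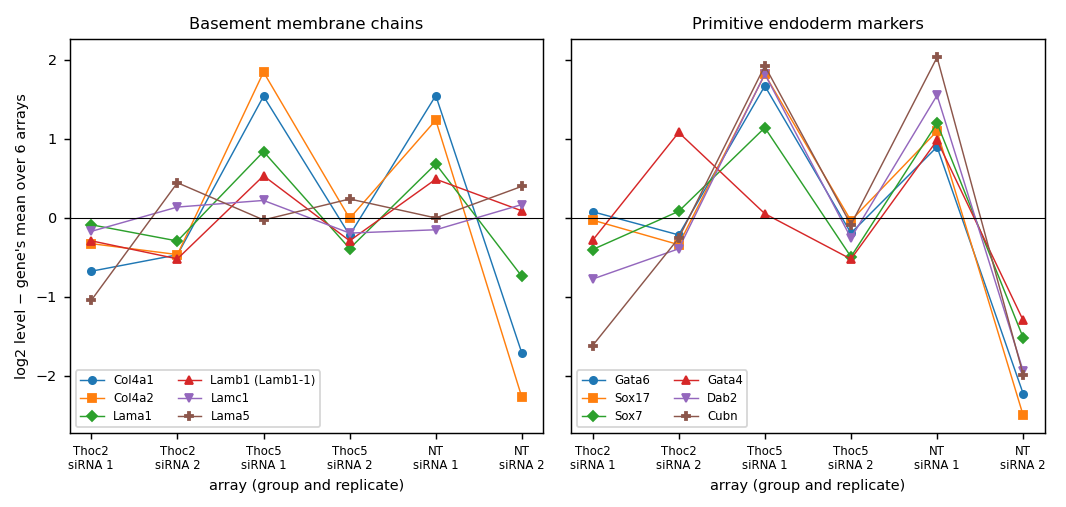
Levels of 6 basement membrane chains (left) and 6 primitive endoderm markers (right) on each array, with each gene centred on its mean over the 6 arrays (log2). Col4a1, Col4a2 and Lama1 peak on replicate 1 of Thoc5 siRNA and of NT siRNA and are lowest on replicate 2 of NT siRNA, as Gata6, Sox17 and Sox7 are, while Lamc1 stays near 0. Gata4 is also lowest on replicate 2 of NT siRNA but is highest on replicate 2 of Thoc2 siRNA.

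Col4a6 and Col4a4 belong to the rarer collagen IV trimers of kidney, muscle and other basement membranes. Col4a6 was at -1.16 and -0.25 with Thoc2 siRNA, -1.67 and -2.36 with Thoc5 siRNA, and -0.61 and -1.03 with NT siRNA. Both Thoc5 siRNA arrays were below the other 4. The difference was -1.19 ± 0.43 from NT (limma, unadjusted p = 0.0430) and -1.31 ± 0.43 from Thoc2 siRNA (0.0325). The p against NT was under 0.05 in 8 of 17 other settings, and it was 0.176 without replicate 2 of Thoc5 siRNA. Col4a4 was at 1.20 and 1.44 with Thoc2 siRNA, 1.28 and 0.96 with Thoc5 siRNA, and 0.85 and -0.15 with NT siRNA. The 4 siRNA arrays lay above both NT arrays, with unadjusted limma p-values of 0.0573 (Thoc2 siRNA) and 0.107 (Thoc5 siRNA). For both genes these values come from the brightest probe alone, as every other probe of Col4a6 and Col4a4 was well above background on no array.

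Lama4 and Lama2, alpha chains of endothelial and muscle laminins, were the laminins with the smallest p-values. Lama4 was at -4.30 and -4.27 with Thoc2 siRNA, -4.03 and -4.16 with Thoc5 siRNA, and -5.19 and -5.15 with NT siRNA. The 4 siRNA arrays were higher than both NT arrays and close to each other. The difference from NT was 0.88 ± 0.14 with Thoc2 siRNA (1.84-fold, limma, unadjusted p = 0.00211, adjusted p = 0.219) and 1.07 ± 0.14 with Thoc5 siRNA (2.10-fold, unadjusted p = 0.000932, adjusted p = 0.101). Between Thoc5 and Thoc2 siRNA it was 0.19 ± 0.14. The Thoc2 siRNA difference was 0.30 under quantile normalization (unadjusted p = 0.297), 0.30 in the deposited series table (0.309) and 0.57 with cyclic loess (0.0932). The Thoc5 siRNA difference stayed between 0.99 and 1.34 in 18 other settings, with an unadjusted p under 0.05 in 15 of the 17 that give one. With limma restricted to genes well above background on all 6 arrays, the adjusted p of Lama4 with Thoc5 siRNA was 0.0392. Lama4 is a dim probe, and the lowest level of probes well above background on the NT arrays was -6.20 and -6.24.

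Lama2 was at -4.89 and -4.93 with Thoc2 siRNA, -6.54 and -5.80 with Thoc5 siRNA, and -6.06 and -6.70 with NT siRNA. It was well above background on both Thoc2 siRNA arrays, on 1 Thoc5 siRNA array and on no NT array. With Thoc2 siRNA it was at least 2.36-fold higher than with NT siRNA (limma, adjusted p = 0.241), a bound in which each NT array stands at its lowest level of any probe well above background, or at the Lama2 level where that was higher. The fitted difference from NT of 1.47 was 0.63 under quantile normalization (unadjusted p = 0.0931) and 0.56 in the deposited series table (unadjusted p = 0.0965). The fitted difference between Thoc5 and Thoc2 siRNA, -1.26 ± 0.35 (unadjusted p = 0.0193), rests on replicate 1 of Thoc5 siRNA, where Lama2 was not above background and where the lowest level of probes that were, -4.64, lies above both Thoc2 siRNA arrays. Without that array it was -0.89 (unadjusted p = 0.0759). Of 4 tested endothelial markers, 1 was higher (8.03% of all genes were) and 0 lower (6.5%) at an unadjusted p under 0.05 with Thoc2 siRNA. The counts with Thoc5 siRNA were 1 higher (7.38%) and 2 lower (12%). Kdr, a receptor of vascular growth factor, differed from NT by 1.20 with Thoc2 siRNA and 1.24 with Thoc5 siRNA, Pecam1 by 0.04 and -0.08, and Cdh5 was above background on 1 array. The summed level of the 6 endothelial markers was 0.855 and 0.836 with Thoc2 siRNA, 0.640 and 0.666 with Thoc5 siRNA, and 0.839 and 0.785 with NT siRNA. Their part in the Lama4 and Lama2 levels was not tested.

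The remaining laminin chains gave no p under 0.05. Lama3 and Lamb3, chains of epithelial laminins, were dim, and Lamb3 was above background on 4 of 6 arrays. Lamb2 was 0.41 ± 0.19 above NT with Thoc2 siRNA (limma, unadjusted p = 0.0921). Lamc3 was -1.33 ± 0.62 from NT with Thoc5 siRNA (0.0904).

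Col15a1 and Col18a1 are multiplexins, collagens that sit at basement membranes and release anti-angiogenic fragments. Col15a1 was at -3.39 and -3.47 with Thoc2 siRNA, -6.93 and -5.70 with Thoc5 siRNA, and -5.37 and -5.33 with NT siRNA. The Thoc2 siRNA arrays were above the other 4. Replicate 1 of Thoc5 siRNA was not well above background, and the lowest level of probes that were so on that array, -4.64, lies above both NT arrays, so the order of Thoc5 siRNA and NT siRNA is not settled. The difference was 1.92 ± 0.43 from NT with Thoc2 siRNA (3.77-fold, limma, unadjusted p = 0.00873, adjusted p = 0.235). It was 1.47 under quantile normalization (limma, unadjusted p = 0.119). The fitted difference between Thoc5 and Thoc2 siRNA was -2.88 ± 0.43 (unadjusted p = 0.00172, adjusted p = 0.414), with 1 of its Thoc5 siRNA arrays in the background. Without that array it was -2.27 (unadjusted p = 0.00072), and normexp background correction brought it to -0.53 (unadjusted p = 0.547).

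Col18a1, whose C-terminal fragment is endostatin, was at 6.45 and 6.61 with Thoc2 siRNA, 6.08 and 6.07 with Thoc5 siRNA, and 5.97 and 6.23 with NT siRNA. The Thoc5 siRNA arrays lay below the Thoc2 siRNA arrays and inside the NT range. The difference between Thoc5 and Thoc2 siRNA was -0.45 ± 0.17 (limma, unadjusted p = 0.0465), and a second Col18a1 probe, A_52_P261846, gave -0.42. That probe differed from NT by 0.03 with Thoc2 siRNA and -0.40 with Thoc5 siRNA (limma over all kept probes, unadjusted p = 0.0484), against 0.43 and -0.02 by the first, so the place of the NT arrays differed by probe. Col7a1, the collagen of anchoring fibrils that tie epithelia to the stroma below, was at 0.47 and 0.76 with Thoc2 siRNA, 0.94 and 1.39 with Thoc5 siRNA, and -0.08 and 0.09 with NT siRNA. Its 3 groups did not overlap. The difference from NT was 0.61 ± 0.23 with Thoc2 siRNA (1.53-fold, limma, unadjusted p = 0.0489) and 1.16 ± 0.23 with Thoc5 siRNA (2.23-fold, unadjusted p = 0.00515, adjusted p = 0.123). The p with Thoc5 siRNA was under 0.05 in all 17 other settings that give one, and limma with an intensity trend and robust variances gave an adjusted p of 0.0417.

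**Figure D4:**
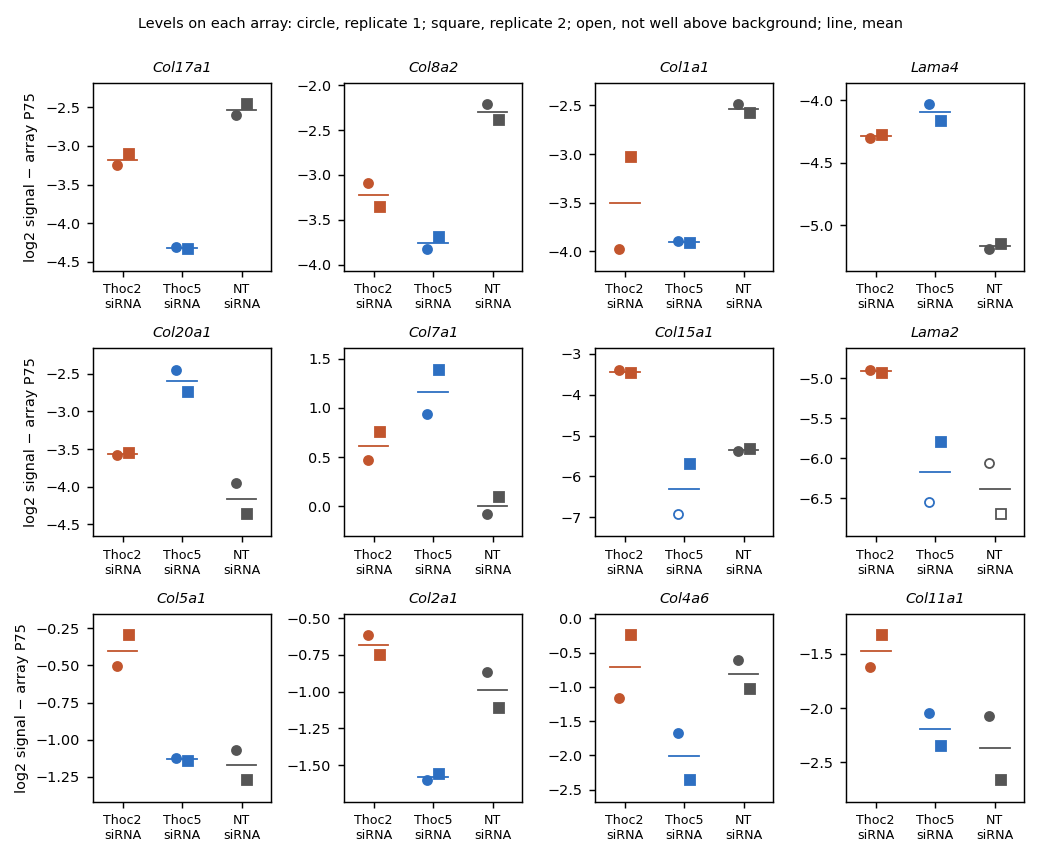
Levels (log2 signal minus the array's 75th percentile) of 12 chains with an unadjusted p under 0.05, on each array. Each panel is 1 gene with its own vertical scale; circles are replicate 1, squares replicate 2, open symbols are not well above background and lines are group means. Col17a1 and Col8a2 are lowest with Thoc5 siRNA and highest with NT siRNA, Col20a1 and Col7a1 run the other way, and Col15a1 is highest with Thoc2 siRNA.

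Fibrillar collagens differed in direction by chain. Col1a1, the main chain of type I collagen, was at -3.97 and -3.03 with Thoc2 siRNA, -3.90 and -3.92 with Thoc5 siRNA, and -2.49 and -2.58 with NT siRNA. The 4 siRNA arrays were below both NT arrays, and Col1a1 stood at 51.1% of NT with Thoc2 siRNA (-0.97 ± 0.34, limma, unadjusted p = 0.0414) and at 38.6% with Thoc5 siRNA (-1.37 ± 0.34, unadjusted p = 0.0127). The direction with Thoc2 siRNA turned to 0.36 when the mean over kept probes was used and to 0.42 with normexp background correction, which brought the Thoc5 siRNA difference to 0.09. The second Col1a1 probe kept, A_52_P658611, was above background on 3 arrays only, and was kept only through the Thoc2 siRNA group, where it was highest. Col1a2, the other chain of type I collagen, was at -2.71 and -1.46 with Thoc2 siRNA, -2.89 and -1.53 with Thoc5 siRNA, and -2.20 and -1.76 with NT siRNA. All its groups overlapped, with differences from NT of -0.11 ± 0.65 (Thoc2 siRNA) and -0.23 ± 0.65 (Thoc5 siRNA), so the 2 chains of the type I trimer did not show 1 pattern. Col3a1, of type III fibrils, was above background on replicate 2 of Thoc2 siRNA and replicate 1 of NT siRNA only and was not tested; its levels were -6.02 and -3.56 with Thoc2 siRNA, -6.90 and -6.66 with Thoc5 siRNA, and -4.07 and -8.18 with NT siRNA. A dimmer Col3a1 probe, A_51_P515605, was above background on 3 arrays, with levels of -4.15 and -5.33 with Thoc2 siRNA, -6.91 and -5.99 with Thoc5 siRNA, and -6.58 and -6.95 with NT siRNA. It was above background on both Thoc2 siRNA arrays, on replicate 2 of Thoc5 siRNA and on no NT array. Like Lama2, it was thus kept only through the group where it was highest. The Thoc2 siRNA level of this probe exceeded that with NT siRNA at least 2.78-fold, a bound formed as for Lama2 (limma over all kept probes, unadjusted p = 0.0141, adjusted p = 0.249). Like that of Lama2, this bound applies only to levels as defined above.

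Col5a1 and Col11a1, minor chains that nucleate fibrils, were higher with Thoc2 siRNA. Col5a1 was at -0.50 and -0.30 with Thoc2 siRNA, -1.12 and -1.14 with Thoc5 siRNA, and -1.07 and -1.27 with NT siRNA. The Thoc2 siRNA arrays stood above the other 4, by 0.77 ± 0.16 from NT (1.70-fold, limma, unadjusted p = 0.00678), and Thoc5 siRNA was -0.73 ± 0.16 from Thoc2 siRNA (unadjusted p = 0.00827). The second Col5a1 probe, A_52_P237371, was at -3.09 and -2.72 with Thoc2 siRNA, -3.98 and -4.28 with Thoc5 siRNA, and -5.80 and -4.98 with NT siRNA, and so differed from NT by 2.49 (Thoc2 siRNA) and 1.26 (Thoc5 siRNA). Col11a1 was at -1.62 and -1.33 with Thoc2 siRNA, -2.04 and -2.35 with Thoc5 siRNA, and -2.08 and -2.66 with NT siRNA. It was 0.89 ± 0.27 above NT with Thoc2 siRNA (limma, unadjusted p = 0.0267), and its Thoc5 siRNA and NT arrays overlapped.

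Col2a1, the cartilage fibril chain that is also transcribed in early embryos, was lowest with Thoc5 siRNA. It was at -0.62 and -0.75 with Thoc2 siRNA, -1.60 and -1.56 with Thoc5 siRNA, and -0.86 and -1.11 with NT siRNA. The Thoc5 siRNA arrays lay below the other 4 and close to each other, by -0.60 ± 0.16 from NT (66.2% of its level, limma, unadjusted p = 0.0171) and -0.90 ± 0.16 from Thoc2 siRNA (53.7%, unadjusted p = 0.00361). The second Col2a1 probe, A_51_P317141, gave -0.95 and -0.81 for these 2 differences. Col5a3 was at -3.27 and -2.85 with Thoc2 siRNA, -3.11 and -4.00 with Thoc5 siRNA, and -2.31 and -2.62 with NT siRNA. It was -1.09 ± 0.37 from NT with Thoc5 siRNA (limma, unadjusted p = 0.0366), while its second probe, A_52_P503796, gave 0.53 with Thoc5 siRNA and 2.07 with Thoc2 siRNA. That probe was not well above background on replicate 1 of Thoc5 siRNA or replicate 2 of NT siRNA. It was kept only through the Thoc2 siRNA group, where it was highest, and both of its differences include a background level. Col11a2 was at -5.50 and -3.81 with Thoc2 siRNA, -2.97 and -2.93 with Thoc5 siRNA, and -3.04 and -3.30 with NT siRNA. Replicate 1 of Thoc2 siRNA was below background, and the difference of 1.70 ± 0.59 between Thoc5 and Thoc2 siRNA (unadjusted p = 0.0381) was -0.07 by its second probe, A_52_P563285.

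Of the fibril-associated collagens, which decorate fibrils or sit at tissue junctions, 5 of 9 were tested. Col20a1 was at -3.58 and -3.55 with Thoc2 siRNA, -2.45 and -2.74 with Thoc5 siRNA, and -3.95 and -4.37 with NT siRNA. The 3 groups did not overlap, with the Thoc5 siRNA arrays highest. The difference from NT was 1.56 ± 0.21 with Thoc5 siRNA (2.96-fold, limma, unadjusted p = 0.00120, adjusted p = 0.101) and 0.59 ± 0.21 with Thoc2 siRNA (1.51-fold, unadjusted p = 0.0444). Between Thoc5 and Thoc2 siRNA it was 0.97 ± 0.21 (unadjusted p = 0.00817). The p with Thoc5 siRNA was under 0.05 in 16 of 17 other settings, against 5 of 17 for Thoc2 siRNA. Under quantile normalization the Thoc2 siRNA difference was 0.21 (limma, unadjusted p = 0.364). In genes above background on all 6 arrays the adjusted p with Thoc5 siRNA was 0.0393.

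Col9a2, Col9a3 and Col22a1 were lower with Thoc5 siRNA. Col9a2, a cartilage collagen IX chain, was at -1.47 and -0.91 with Thoc2 siRNA, -1.72 and -1.14 with Thoc5 siRNA, and -0.52 and -0.50 with NT siRNA. All siRNA arrays were below both NT arrays, and the difference was -0.92 ± 0.30 with Thoc5 siRNA (limma, unadjusted p = 0.0312) and -0.68 ± 0.30 with Thoc2 siRNA (unadjusted p = 0.0767). Col9a3, its partner chain, was at -3.20 and -3.10 with Thoc2 siRNA, -3.59 and -4.04 with Thoc5 siRNA, and -2.96 and -3.34 with NT siRNA. Thoc5 siRNA was -0.66 ± 0.24 from NT and from Thoc2 siRNA alike (unadjusted p = 0.0435 and 0.0437), and the first of these turned to 0.39 with normexp background correction. Col22a1, a collagen of muscle to tendon junctions, was at -2.36 and -1.70 with Thoc2 siRNA, -2.57 and -2.76 with Thoc5 siRNA, and -1.31 and -1.75 with NT siRNA. It was -1.13 ± 0.30 from NT with Thoc5 siRNA (limma, unadjusted p = 0.0158), while its second probe, A_51_P145010, gave -0.20.

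The smallest p-value of any chain belonged to Col17a1, the transmembrane collagen of hemidesmosomes, which anchor epithelial cells to their basement membrane. It was at -3.25 and -3.10 with Thoc2 siRNA, -4.31 and -4.33 with Thoc5 siRNA, and -2.60 and -2.46 with NT siRNA. The 3 groups did not overlap and replicates lay within 0.15 of each other. Col17a1 stood at 28.9% of NT with Thoc5 siRNA (-1.79 ± 0.15, limma, unadjusted p = 0.000133, adjusted p = 0.101) and at 63.9% with Thoc2 siRNA (-0.65 ± 0.15, unadjusted p = 0.00915, adjusted p = 0.237). Thoc5 siRNA was at 45.3% of the Thoc2 siRNA level (-1.14 ± 0.15, unadjusted p = 0.000917, adjusted p = 0.414). In genes above background on all 6 arrays its adjusted p with Thoc5 siRNA was 0.0374.

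Col8a2, a short-chain collagen that forms hexagonal lattices such as that under the corneal endothelium, had the same order of groups. It was at -3.08 and -3.36 with Thoc2 siRNA, -3.82 and -3.69 with Thoc5 siRNA, and -2.21 and -2.39 with NT siRNA. The difference from NT was -0.92 ± 0.18 with Thoc2 siRNA (52.8%, limma, unadjusted p = 0.00463, adjusted p = 0.222) and -1.46 ± 0.18 with Thoc5 siRNA (36.4%, unadjusted p = 0.000702, adjusted p = 0.101). Thoc5 siRNA was -0.54 ± 0.18 from Thoc2 siRNA (unadjusted p = 0.0332), a p that was under 0.05 in 7 of 17 other settings; the difference was -0.13 under quantile normalization (unadjusted p = 0.53). For both genes p was under 0.05 with Thoc5 siRNA against NT in 16 of 17 other settings. The exception was normexp background correction, which brought each of the 2 Thoc5 siRNA differences to 0.06 and turned the Thoc2 siRNA differences to 0.55 (Col17a1) and 0.34 (Col8a2), while the median of all genes moved to 0.25 with Thoc5 siRNA and 0.30 with Thoc2 siRNA. Of the remaining transmembrane collagens, Col13a1, Col23a1 and Col25a1 gave no p under 0.05 by their brightest probes, and neither did Col8a1 or Col6a2.

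A second Col23a1 probe, A_52_P431116, differed between the groups in detection. It was at -4.58 and -4.98 with Thoc2 siRNA, -6.92 and -7.38 with Thoc5 siRNA, and -5.39 and -5.21 with NT siRNA, and was well above background on every Thoc2 siRNA and NT array and on no Thoc5 siRNA array. With Thoc5 siRNA it was at least 1.31-fold lower than with NT siRNA (limma over all kept probes, unadjusted p = 0.00104, adjusted p = 0.103) and at least 1.88-fold lower than with Thoc2 siRNA (unadjusted p = 0.000353, adjusted p = 0.441). On replicate 1 of Thoc5 siRNA the lowest level of probes well above background, -4.64, lies above both NT levels of this probe. The order against NT is therefore not settled on that array, and the bound against NT rests on replicate 2. Both bounds, like that of Lama2, apply only to levels as defined above. The p-values take the background level of -6.92 as measured. The brightest Col23a1 probe gave 0.34 ± 0.91 and -1.13 ± 0.91 for these 2 differences.

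In all, 18 of the 38 tested chains had an unadjusted p under 0.05 in at least 1 comparison, against 27.5% of all genes. Some of these p-values held in few other settings: with Thoc2 siRNA against NT, Col20a1 kept it in 5 of 17, Col1a1 in 6 and Col7a1 in 11. With Thoc5 siRNA against NT, Col5a3 kept it in 5 of 17 and Col9a3 in 6, and between Thoc5 and Thoc2 siRNA Col9a3 kept it in 5 and Col18a1 in 9. The 20 chains with none ranged from -1.18 to 1.48 with Thoc2 siRNA and from -1.33 to 1.44 with Thoc5 siRNA. Where several probes of a chain were kept (16 chains), all of them had the same sign for 9 chains with Thoc2 siRNA and for 9 with Thoc5 siRNA.

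Enzymes that process collagen were mixed, with 26 of 34 listed genes tested. With Thoc2 siRNA 2 were higher (8.03% of all genes were) and 3 lower (6.5%) at an unadjusted p under 0.05. The counts with Thoc5 siRNA were 2 higher (7.38%) and 6 lower (12%). Loxl4 is among the 2 higher with Thoc2 siRNA and the 6 lower with Thoc5 siRNA. It passed the filter only through the Thoc2 siRNA arrays, where it was highest, and was well above background on no Thoc5 siRNA array. The list's median was -0.01 with Thoc2 siRNA and 0.01 with Thoc5 siRNA. Adamts3, a protease that trims procollagen, was at -4.16 and -4.17 with Thoc2 siRNA, -2.26 and -2.66 with Thoc5 siRNA, and -5.04 and -5.29 with NT siRNA. Its groups did not overlap, and it was 1.00 above NT with Thoc2 siRNA and 2.71 with Thoc5 siRNA. Loxl1, a lysyl oxidase that cross-links collagen and elastin, was at -2.39 and -2.68 with Thoc2 siRNA, -2.71 and -2.69 with Thoc5 siRNA, and -1.51 and -1.86 with NT siRNA. The 4 siRNA arrays were below both NT arrays. Loxl2, another cross-linking enzyme, differed from NT by -1.67 with Thoc5 siRNA, and Pxdn, the peroxidase that forms the sulfilimine bond of collagen IV, by -1.56 with Thoc2 siRNA. Bmp1, which removes the procollagen C-propeptide, differed by 0.84 with Thoc5 siRNA. Leprel2, a prolyl 3-hydroxylase, differed by -0.41 with Thoc2 siRNA and -0.77 with Thoc5 siRNA.

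Among partners and receptors of the matrix 16 of 26 genes were tested. At an unadjusted limma p under 0.05, 1 was higher (8.03% of all genes were) and 2 lower (6.5%) with Thoc2 siRNA. The counts with Thoc5 siRNA were 0 higher (7.38%) and 3 lower (12%). By adjusted p there were 0. Fn1, fibronectin, was at 1.52 and 1.54 with Thoc2 siRNA, 1.68 and 1.46 with Thoc5 siRNA, and 2.32 and 2.56 with NT siRNA. The 4 siRNA arrays were below both NT arrays, by -0.91 with Thoc2 siRNA and -0.87 with Thoc5 siRNA. Smoc1, a basement membrane protein, differed by -0.79 with Thoc2 siRNA and -0.91 with Thoc5 siRNA, and Ddr1, a collagen receptor kinase, by -0.62 with Thoc5 siRNA. Of the matrix proteases and inhibitors 14 of 19 were tested. None was higher at an unadjusted p under 0.05 with either siRNA, while 2 were lower with Thoc2 siRNA and 1 with Thoc5 siRNA. The shares of all genes are those given above. Mmp2, a gelatinase that cleaves collagen IV, was at -2.68 and -3.07 with Thoc2 siRNA, -3.23 and -3.21 with Thoc5 siRNA, and -1.71 and -2.29 with NT siRNA.

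Fibroblast and feeder markers were measured beside the fibrillar collagens. Of 10 tested, 1 was higher (8.03% of all genes were) and 1 lower (6.5%) at an unadjusted p under 0.05 with Thoc2 siRNA. The counts with Thoc5 siRNA were 0 higher (7.38%) and 2 lower (12%). Thy1, a surface glycoprotein of fibroblasts that embryonic stem cells can also express, was at -1.35 and -1.11 with Thoc2 siRNA, -1.22 and -2.12 with Thoc5 siRNA, and 0.64 and 0.03 with NT siRNA. The siRNA arrays were below both NT arrays, as they were for Col1a1. Other markers went the other way: of the 10, 6 had a mean above NT with Thoc2 siRNA and 3 with Thoc5 siRNA. Twist1 differed from NT by 0.69 (Thoc2 siRNA) and 0.27 (Thoc5 siRNA), and Dcn by 1.06 and -0.30. The summed linear level of the 12 markers was 17.5 and 17.9 with Thoc2 siRNA, 15.4 and 19.1 with Thoc5 siRNA, and 19.5 and 14.8 with NT siRNA, so those ranges overlapped. Acta2, at 3.26 to 3.74, and Tagln, at 0.75 to 2.33, made up most of that sum, so it says little of the dimmer markers. The part of the 12 markers in the Col1a1 levels was not tested. All 5 tested trophectoderm markers had a mean above NT with both siRNAs. At an unadjusted limma p under 0.05, 2 were higher with Thoc2 siRNA (8.03% of all genes were) and 3 with Thoc5 siRNA (7.38%). The summed level of the 6 listed was 0.817 and 0.665 with Thoc2 siRNA, 0.749 and 1.15 with Thoc5 siRNA, and 0.495 and 0.481 with NT siRNA. Gata3, a trophectoderm factor, differed from NT by 2.38 with Thoc2 siRNA and 1.85 with Thoc5 siRNA. The siRNA arrays lay above both NT arrays in that sum, as they did for Lama4, Col7a1 and Col20a1, and its part in those levels was not tested.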

How the data were processed

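Signal intensities were read from the scanner files, where, per the file headers, each spot's processed signal is its background-subtracted and spatially detrended intensity; the headers name Feature Extraction 9.5.3.1 and the submitters' processing notes 11.0. The log2 values deposited for the whole series appear quantile-normalized (Spearman correlation of 1 with the processed signal on each array, median 5.82 on all) and served as an alternative; no header states how the authors made it. Control spots and outlier spots were left out, spots of a probe averaged, and log2 signal taken relative to the array's 75th percentile. A probe was kept if at least 0.5 of its spots were well above background on both arrays of 1 group, and a gene was tested if its brightest probe was kept.

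Limma 3.58.1 (R 4.3.3; data.table package, version 1.17.8; figures with matplotlib 3.10.9 in Python 3.11.15) was fitted to all 6 arrays over 19480 genes, 342 of them missing on an array (among the chains Col16a1, 1 value), with 3 residual and 1.49 prior degrees of freedom. P-values are two-sided, with Benjamini-Hochberg adjustment across all tested genes. An exact permutation test of 2 against 2 arrays cannot go below 0.333. The fit was tested on simulated data. The number of arrays limits the precision, and p-values measure the spread between arrays, which may be technical. Of the 51 chains, 42 had an accession that RefSeq names, each with the same symbol or its synonym.

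The chains, the lists of other genes and the rule for named genes were chosen with earlier results of these data known. The rule gave all values for Col4a1, Col4a2, Lama1, Lama5, Lamb1, Lamc1, Col1a1, Col1a2 and Col3a1, for chains with an unadjusted p under 0.05, and for chains above background in only 1 group; from the lists, examples with such a p. Col4a4 and the second probes of Col3a1 and Col23a1, from a fit over all kept probes, were added after their values were seen, and 1 chain is not reported here. Alternatives covered the scaling, background correction (normexp, offset 50), filter, probe choice, variance model, slide, replicate number and left-out arrays.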

Additional observations from a re-analysis of the deposited data

How the results depend on the processing

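No setting turned the sign of a chain with an unadjusted p under 0.05 except normexp background correction and the mean over kept probes. Under normexp, which moved the median of all genes to 0.30 with Thoc2 siRNA (0.06 otherwise) and to 0.25 with Thoc5 siRNA (-0.08 otherwise), 2 chains had such a p with Thoc2 siRNA (4.29% of all genes), 2 with Thoc5 siRNA (5.07%) and 0 between them (0.221%). With Thoc2 siRNA Col17a1 was at 0.55, Col1a1 at 0.42, Col1a2 at 0.71 and Col8a2 at 0.34; with Thoc5 siRNA Col17a1 was at 0.06, Col1a1 at 0.09, Col1a2 at 0.57, Col8a2 at 0.06, Col9a3 at 0.39 and Lamc1 at -0.40. The cause was not tested. The mean over kept probes put Col1a1 at 0.36 and Col4a1 at 0.10 with Thoc2 siRNA. Cyclic loess left 7 chains (7.97% of all genes) in Thoc5 against Thoc2 siRNA. Restricting limma to genes well above background on all 6 arrays, which tests fewer genes, gave 4 chains with an adjusted p under 0.05 with Thoc5 siRNA (3.34% of those genes), and an intensity trend with robust variances gave 1 (3.4%). Lamc1 with Thoc2 siRNA, near 0, was at 0.03 with quantile normalization, 0.01 with cyclic loess and 0.02 in the deposited series table.

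Of the 4 slides 2 held 1 NT array and 1 siRNA array each. With slide as a random block Col1a2 was at 0.12 and Col4a2 at -0.27 with Thoc2 siRNA, and Lamc1 at -0.04 with Thoc5 siRNA. Within the shared slide Col1a2 was at 0.74, Col4a2 at -1.70, Lama5 at 0.45 and Lamc1 at 0.29 with Thoc2 siRNA, and Col1a2 at 0.23 and Lamc1 at -0.36 with Thoc5 siRNA. Equal replicate numbers share only a number: the deviations of same-numbered arrays correlated at -0.20 (Thoc2 and NT), 0.14 (Thoc5 and NT) and 0.22 (Thoc5 and Thoc2). With a replicate block 11 chains had an unadjusted p under 0.05 with Thoc2 siRNA (14.4% of all genes), 10 with Thoc5 siRNA (16.9%) and 9 between them (7.88%).

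When 1 array was left out, the number of chains with such a p ran from 7 to 11 in each of the 3 comparisons, and the share of all genes from 5.31% to 18.8%. With Thoc2 siRNA the differences then ran from -0.73 to 0.52 for Col1a2, from -2.12 to 1.14 for Col4a1, from -1.63 to 1.88 for Col4a2, from -0.87 to 0.55 for Lama1, from -1.24 to 0.25 for Lama5 and from -0.19 to 0.13 for Lamc1. With Thoc5 siRNA they ran from -0.91 to 0.45 for Col1a2, from -0.89 to 2.38 for Col4a1, from -0.32 to 3.19 for Col4a2, from -0.46 to 0.97 for Lama1, from -0.29 to 0.11 for Lama5, from -0.58 to 0.24 for Lamb1 and from -0.20 to 0.21 for Lamc1. Both counts with Thoc5 siRNA were 7 without its replicate 2, and that with Thoc2 siRNA was 7 without its replicate 1. In all, 44 of 830 values of single chains under 18 other settings had the opposite sign. Dim probes such as those of Lama2, Lama4 and Col15a1 lie close to the background, which limits how far their differences can be measured.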
